A study of Mus musculus with 16 samples.

Results

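The 10 genes described here encode the proteins by which the sarcoplasmic reticulum (SR) of a heart muscle cell releases and takes back calcium, together with the surface exchanger that removes calcium from the cell. They were chosen by symbol, as Ryr2, Jph2, Trdn, Asph, Casq2, Hrc, Atp2a2, Pln, Sln and Slc8a1. All 10 had a row among the 35682 genes of the deposited table, and all 10 passed the low-count filter that left 10945 tested genes. The RNA came from ventricular myocytes of 16 mice, 8 of the transgenic line B3AR-Tg and 8 wild-type (WT) littermates, and every animal of both groups had undergone transverse aortic constriction (TAC) 9 weeks earlier. TAC narrows the aorta so that the left ventricle works against a higher pressure. No animals without the surgery were analysed here. Cells were freed by perfusing the heart on a Langendorff apparatus and were kept on plates for an hour before RNA was extracted. The line is named for the beta-3 adrenergic receptor. Counts of mouse Adrb3 were 0 to 4 per library in WT and 0 to 3 in B3AR-Tg, below the filter, so they do not check the genotype labels. The promoter and species of the transgene, the strain, and the sex of the animals and their age beyond adult are not given in the sources used here.

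In each heartbeat a small calcium current through surface channels opens ryanodine receptors in the SR membrane, and the calcium that leaves the SR starts contraction. Relaxation follows when the SR calcium pump returns calcium to the SR lumen, where calsequestrin binds it, while the sodium-calcium exchanger carries the rest out of the cell. In many models of pressure overload the pump transcript is lower than in unloaded hearts, and the pump's inhibitor phospholamban sets how much of its capacity is used.

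Libraries held between 6926821 and 11584656 counts in WT and between 5985335 and 14365864 in B3AR-Tg. Cardiac myocyte markers (Myl2, Myl3, Myh6, Tnnt2, Tnni3, Actc1 and Irx4) summed to 33387 to 43229 CPM (the usual library-scaled count, here with TMM factors) in WT animals. In B3AR-Tg they summed to 38158 to 45658 CPM, and 0 of 7 passed the test. Their sum does not tell ventricular from atrial myocytes. A further pair of marker groups moved with genotype. The 5 load markers (Nppa, Nppb, Myh7, Acta1 and Ankrd1), all of which fell, summed to 4805 to 18137 CPM in WT animals, against 1920 to 6506 CPM in B3AR-Tg. The 7 fibroblast markers, of which 4 fell and 1 never exceeded 3 counts, summed to 38.2 to 119 CPM in WT animals, against 11.04 to 46.5 CPM in B3AR-Tg. Endothelial markers, with 1 of 6 lower, summed to 75.4 to 116 CPM in WT animals, against 36.6 to 137 CPM in B3AR-Tg. Mural markers (5 of 6 tested) and leukocyte markers (2 of 6 tested) had 0 members past the threshold. Mural sums were 85.0 to 161 CPM in WT animals, against 47.3 to 141 CPM in B3AR-Tg. Leukocyte sums were 4.15 to 14.3 CPM in WT animals, against 0.706 to 5.99 CPM in B3AR-Tg. In RNA taken from many cells at once, fewer cells of a type and less RNA per cell cannot be told apart.

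Among the 10 genes, 1 rose in B3AR-Tg and 0 fell at an adjusted p under 0.05, that is 10%, beside 4.91% of all tested genes (2.03% higher and 2.88% lower). The gene that rose was Ryr2. The fold changes of the others did not pass and went both ways. Atp2a2, Jph2, Hrc and Pln were above 0, and Casq2, Trdn, Asph, Slc8a1 and Sln were below, of which Sln had the largest absolute value of the 10 and the largest standard error. The median log2 fold change of the 10 genes was −0.02, beside 0.01 over all tested genes, and the median absolute log2 fold change was 0.21, beside 0.15. Without adjustment, 5 of the 10 had a p-value under 0.05, or 50%, beside 19.3% of all tested genes. The genes were chosen with earlier results of these data known, so these shares are no test of the group. In 0 of the 10 genes did the groups stand fully apart, beside 0.448% of all tested genes.

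**Figure D1:**
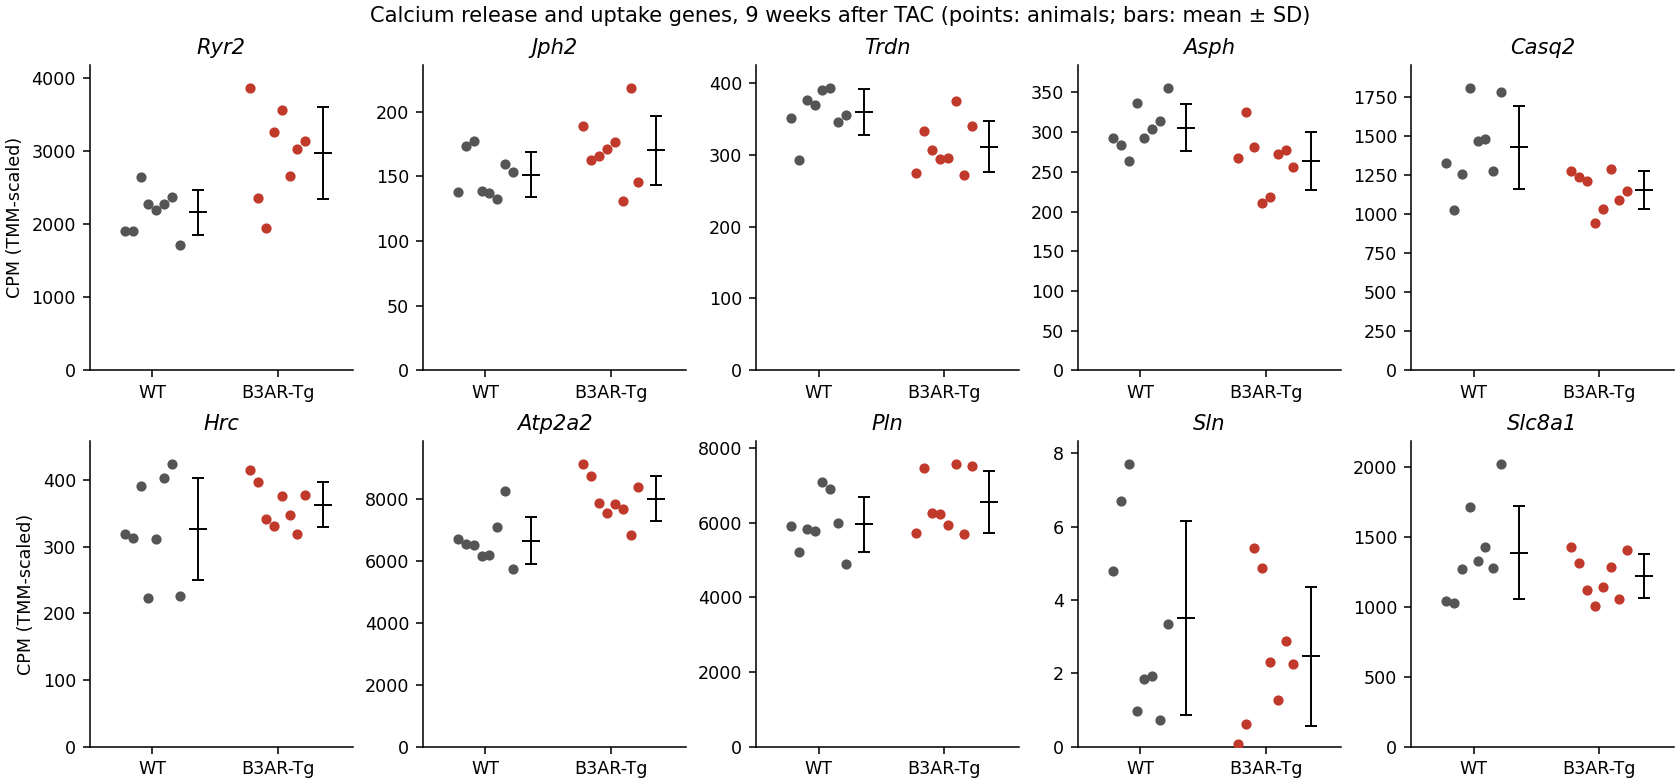
CPM of each gene (vertical axis, from 0) in the 8 WT and 8 B3AR-Tg animals, in order of replicate number within a group, with 1 point per animal and the mean ± SD beside them. In Ryr2, 6 B3AR-Tg animals lie above the highest WT animal, replicate 6 only barely, while the groups overlap in all 10 genes.

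Ryr2 passed alone, and its ratio to Casq2 differed most of the 3 ratios below, so the 250 bases before the annotated start of each are printed on the gene's strand, 5′ to 3′, from RefSeq on GRCm38.p6. RefSeq windows were matched by symbol for 6 of the 10 genes. Capitals mark letters that match one of 6 motifs searched on both strands. They were the E-box CANNTG, where N is any base, the GATA motif AGATAA, the muscle motif MCAT in the form CATTCC, the CRE half-site TGACG, the TATA motif TATAAA, and the motif of MEF2 by its name. The Ryr2 window is chr13:12106946-12107195 on the minus strand and the Casq2 window is chr3:102086165-102086414 on the plus strand.
Ryr2: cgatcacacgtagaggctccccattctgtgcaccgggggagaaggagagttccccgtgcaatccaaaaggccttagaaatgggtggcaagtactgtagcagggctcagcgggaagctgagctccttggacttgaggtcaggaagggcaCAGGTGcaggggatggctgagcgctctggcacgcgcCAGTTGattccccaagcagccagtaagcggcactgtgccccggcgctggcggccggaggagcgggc
Casq2: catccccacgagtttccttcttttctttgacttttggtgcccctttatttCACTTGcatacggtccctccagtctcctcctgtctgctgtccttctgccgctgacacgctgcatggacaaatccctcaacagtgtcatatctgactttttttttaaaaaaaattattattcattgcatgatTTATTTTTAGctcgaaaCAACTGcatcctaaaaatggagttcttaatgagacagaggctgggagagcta
The Ryr2 window held E-box matches 102 to 97 and 66 to 61 bases before the start. The Casq2 window held E-box matches 200 to 195 and 52 to 47 bases before the start, and a MEF2 match 69 to 60 bases before it. Over all 32526 RefSeq windows of this length, 66.2% held an E-box match and 2.89% a MEF2 match. The G and C content was 63.2% in the Ryr2 window and 41.6% in that of Casq2, against a median of 52.4% over all windows. A match is a description of letters only, and no matches overlapped in these 2 windows.

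Ryr2 encodes the ryanodine receptor of heart muscle, the channel through which the SR releases calcium. WT animals lay between 1716 and 2646 CPM with a median of 2232, and B3AR-Tg animals between 1952 and 3865 CPM with a median of 3081. Thus 6 of 8 B3AR-Tg animals were above the highest WT animal, and B3AR-Tg replicates 3 and 2 (1952 and 2359 CPM) lay within the WT range. The lowest of those 6, replicate 6, was barely above the highest WT animal (2657 against 2646 CPM). The means were 2160 ± 302 and 2978 ± 630 CPM (SD, n = 8 each, WT first), a log2 fold change of 0.46 (standard error 0.12), or 1.38-fold (edgeR adjusted p = 0.0359). Ryr2 ranked 401 by p-value among the tested genes. The call was close to the threshold. It was lost when 1 animal was left out in 8 of 16 cases, with adjusted p = 0.0654, 0.0574, 0.0830 and 0.0662 without B3AR-Tg replicates 1, 4, 5 and 8, and adjusted p = 0.0691, 0.0654, 0.0594 and 0.0701 without WT replicates 1, 2, 4 and 8. The log2 fold change stayed between 0.40 and 0.53 in those 16 fits. With the load markers as a covariate, which differ with genotype themselves, it was 0.16 ± 0.20 (standard error, adjusted p = 0.849), and with non-myocyte markers as a covariate it was 0.58 ± 0.17 (standard error, adjusted p = 0.144). The non-myocyte marker score also differed with genotype, at −0.011 to 0.98 in WT animals and −1.514 to 0.157 in B3AR-Tg. Fits with either score therefore cannot fully separate it from genotype.

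Jph2 encodes junctophilin-2, which holds the SR close to the surface membrane tubules so that channel and receptor face each other. Values of WT animals lay between 133 and 177 CPM with a median of 146, and B3AR-Tg animals between 131 and 218 CPM with a median of 169. The groups overlapped widely, with 7 of 8 B3AR-Tg animals above the WT median and the lowest animal of all also in B3AR-Tg. The log2 fold change of 0.17 (standard error 0.10) did not pass (adjusted p = 0.355). It was 0.36 with the load markers and 0.31 with the non-myocyte markers as a covariate, and 0.11 without B3AR-Tg replicate 7, the highest animal.

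Trdn and Asph encode triadin and, among other products of the Asph locus, junctin, the membrane proteins that tie calsequestrin to the ryanodine receptor. The Asph locus also encodes an aspartate beta-hydroxylase, and counts per gene do not separate these products. Trdn lay between 292 and 393 CPM in WT (median 362) and between 272 and 374 CPM in B3AR-Tg (median 301). Only 1 B3AR-Tg animal, replicate 6, was above the WT median of Trdn, while 1 WT animal, replicate 2, was below the B3AR-Tg median. Its log2 fold change was −0.21 (standard error 0.08, adjusted p = 0.157). With the load markers as a covariate it was −0.41 (adjusted p = 0.397), and with the non-myocyte markers −0.35 (adjusted p = 0.157). Asph lay between 264 and 356 CPM in WT (median 299) and between 211 and 325 CPM in B3AR-Tg (median 270), again with 1 B3AR-Tg animal above the WT median. Its log2 fold change was −0.21 (standard error 0.09, adjusted p = 0.187), and it was 0.01 with the load markers and −0.35 with the non-myocyte markers as a covariate.

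Casq2 encodes cardiac calsequestrin, the main calcium-binding protein of the SR lumen. In WT the range was 1030 to 1810 CPM with a median of 1398, and in B3AR-Tg it was 945 to 1289 CPM with a median of 1181. All 8 B3AR-Tg animals were below the WT median, 5 WT animals were above every B3AR-Tg animal, and WT replicate 2 was low at 1030 CPM. The log2 fold change was −0.31 (standard error 0.11), or 0.808-fold, and missed the threshold (adjusted p = 0.106). Without WT replicate 2 it was −0.36 and passed (adjusted p = 0.0447). It was −0.18 with the load markers and −0.46 with the non-myocyte markers as a covariate (adjusted p = 0.815 and 0.172). Hrc encodes the histidine-rich calcium-binding protein, another calcium binder of the SR lumen. It lay between 222 and 424 CPM in WT (median 316) and between 319 and 415 CPM in B3AR-Tg (median 362). The B3AR-Tg range of Hrc lay inside that of WT, where replicates 4 and 8 were low (222 and 227 CPM). All 8 B3AR-Tg animals were above the WT median of Hrc, and 4 WT animals were below every B3AR-Tg animal. The log2 fold change of Hrc, 0.15 (standard error 0.12), did not pass (adjusted p = 0.515). Without WT replicate 4 or 8 the Hrc value was 0.09 each time, and it was −0.29 with the load markers and 0.03 with the non-myocyte markers as a covariate.

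Atp2a2 encodes SERCA2, the pump that returns calcium to the SR. WT animals lay between 5752 and 8263 CPM with a median of 6546, and B3AR-Tg animals between 6846 and 9141 CPM with a median of 7863. All 8 B3AR-Tg animals were above the WT median and 6 WT animals were below every B3AR-Tg animal, while WT replicate 7 (8263 CPM) lay among the high B3AR-Tg values. The means were 6659 ± 762 and 8013 ± 729 CPM (SD, n = 8 each), a log2 fold change of 0.27 (standard error 0.09), or 1.20-fold, which did not pass (adjusted p = 0.0798). The call depended on the setting. It passed with DESeq2 (adjusted p = 0.0172), with libraries scaled by their totals only (0.0259), without WT replicate 7 (0.0325) and without B3AR-Tg replicate 7 (0.0489), and did not pass in the other 22 alternatives. With the load markers as a covariate the value was 0.09 (adjusted p = 0.885), and with the non-myocyte markers it was 0.20 (adjusted p = 0.488).

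Pln encodes phospholamban, a small membrane protein that inhibits the pump until it is phosphorylated. In WT the range was 4899 to 7079 CPM with a median of 5876, and in B3AR-Tg it was 5680 to 7569 CPM with a median of 6242. The groups overlapped, although B3AR-Tg replicates 2, 6 and 8 were above every WT animal. The log2 fold change of 0.14 (standard error 0.10) did not pass (adjusted p = 0.459), and it was −0.16 with the load markers and −0.02 with the non-myocyte markers as a covariate.

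Sln encodes sarcolipin, a second small inhibitor of the pump that in the mouse heart is known mainly from the atria. Its counts were low, at 1 to 79 per library, where 3 counts (0.201 to 0.487 CPM, counting error only) were taken as the floor. WT animals lay between 0.732 and 7.71 CPM with a median of 2.63, and B3AR-Tg animals between 0.0669 and 5.43 CPM with a median of 2.27. The coefficient of variation was 75.6% in WT and 77.4% in B3AR-Tg, against 8.92% to 24.2% for the other members over both groups. The difference in Sln did not pass (log2 fold change −0.58, standard error 0.53, adjusted p = 0.586). It was −0.41 with the load markers and 0.14 with the non-myocyte markers as a covariate, and −0.37, −0.37 and −0.32 without B3AR-Tg replicate 1, WT replicate 2 and WT replicate 3. Atrial myocyte markers (Myl7, Myl4, Bmp10, Stard10, Dkk3 and Nr2f2) summed to 25.5 to 92.9 CPM in WT animals, against 15.1 to 64.6 CPM in B3AR-Tg, with 0 of 4 tested markers past the threshold and none at 0 in every animal. Among 6146 genes with a mean of at least 10 CPM, the one whose level followed Sln most closely within the genotypes was Myl4, the atrial essential light chain (Pearson r = 0.87 over 16 animals, as a description). Of the other atrial markers, Myl7, Bmp10, Dkk3 and Nr2f2 had means under 10 CPM and were not among the genes compared. Stard10 was not among the 3 genes most like Sln. The part of atrial cells in the Sln values was not tested.

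Slc8a1 encodes NCX1, the sodium-calcium exchanger of the surface membrane. WT animals lay between 1026 and 2020 CPM with a median of 1299, and B3AR-Tg animals between 1008 and 1424 CPM with a median of 1212. The WT animals reached higher, with replicates 8 and 4 at 2020 and 1711 CPM and replicate 6 at 1429 CPM above every B3AR-Tg animal. The log2 fold change was −0.19 (standard error 0.13, adjusted p = 0.443), and −0.09 without WT replicate 8. It was −0.11 with the load markers and −0.29 with the non-myocyte markers as a covariate.

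**Figure D2:**
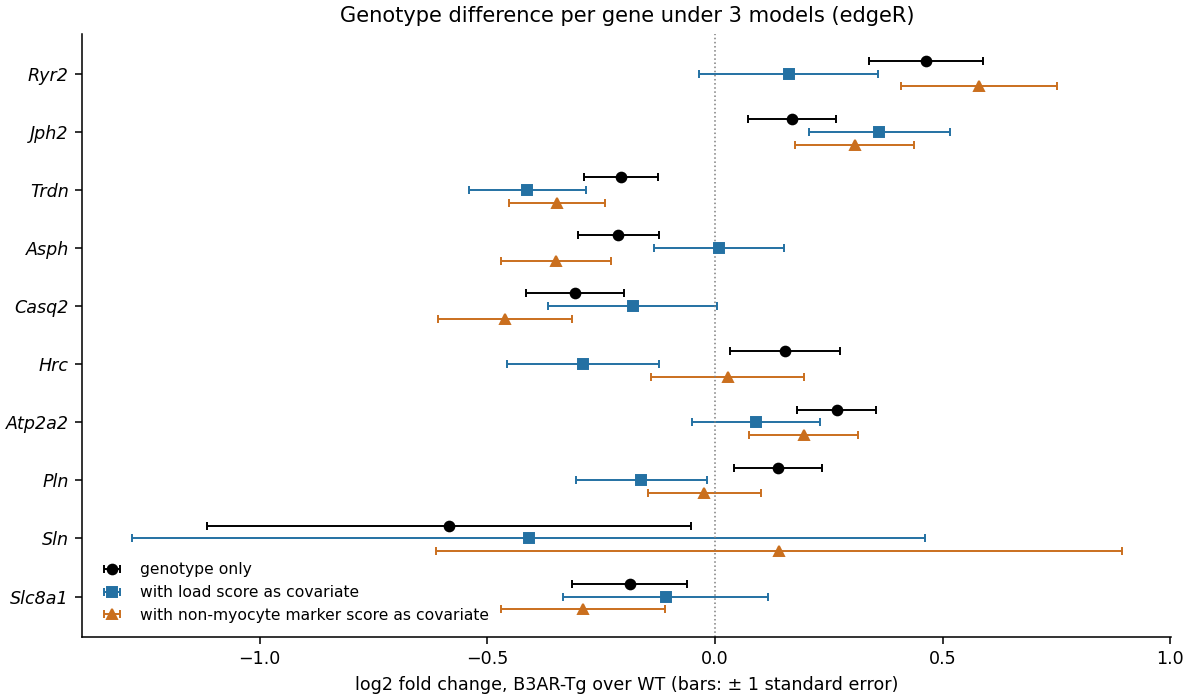
Log2 fold change of B3AR-Tg over WT for each gene (horizontal axis) with bars of 1 standard error, from edgeR fits with genotype only (black circles), with the load score as a covariate (blue squares) and with the non-myocyte marker score as a covariate (orange triangles). Ryr2 moves from 0.46 to 0.16 with the load score and to 0.58 with the non-myocyte score, and Hrc, Pln and Asph change sign with the load score.

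Because pump and inhibitor act together, their counts were divided within each animal. A ratio within a library does not depend on how libraries are scaled. The counts were not divided by transcript length, so these ratios can be compared between animals but do not give the number of molecules per molecule. The Atp2a2 to Pln ratio was 1.13, 1.26, 1.12, 1.07, 0.877, 1.03, 1.38 and 1.17 in WT replicates 1 to 8. In B3AR-Tg replicates 1 to 8 it was 1.596, 1.17, 1.26, 1.21, 1.32, 1.02, 1.21 and 1.12. The groups overlapped almost wholly, with B3AR-Tg replicate 1 alone above the WT range and WT replicate 5 alone below that of B3AR-Tg. The means were 1.13 ± 0.150 in WT and 1.24 ± 0.171 in B3AR-Tg (SD), a difference of 0.13 on the log2 scale with a standard error of 0.10, or 1.10-fold (exact permutation p = 0.197, two-sided, 12870 splits of the animals, adjusted over 3 ratios 0.197). The ratio thus differed by less than the spread between animals, and with 1 animal left out the log2 difference ranged from 0.0783 (without B3AR-Tg replicate 1) to 0.175 (without WT replicate 7), with 0.0818 without WT replicate 5.

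The exchanger to pump ratio, Slc8a1 to Atp2a2, was lower in B3AR-Tg. It lay between 0.154 and 0.351 in WT with a median of 0.198, and between 0.134 and 0.167 in B3AR-Tg with a median of 0.152. All 8 B3AR-Tg animals were below the WT median and 5 were below every WT animal, while WT replicates 1, 2 and 7 (0.155, 0.157 and 0.154) lay among the B3AR-Tg values. The highest WT animals were replicates 8 and 4, at 0.351 and 0.278. The difference was −0.43 on the log2 scale with a standard error of 0.16, or 0.741-fold (exact permutation p = 0.00746, adjusted over 3 ratios 0.0112). Leaving out WT replicate 8 gave −0.32. The SD of the log2 ratio was 0.43 in WT and 0.11 in B3AR-Tg. The permutation takes the groups as alike in spread as well as in mean, so its p does not fully separate these.

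The release channel to luminal buffer ratio, Ryr2 to Casq2, the genes whose upstream bases are printed above, was higher in B3AR-Tg. It lay between 0.963 and 2.10 in WT with a median of 1.51, and between 1.61 and 3.46 in B3AR-Tg with a median of 2.75. All 8 B3AR-Tg animals were above the WT median and 5 were above every WT animal, while B3AR-Tg replicates 3, 2 and 6 (1.61, 1.91 and 2.06) lay within the WT range. The difference was 0.74 on the log2 scale with a standard error of 0.19, or 1.67-fold (exact permutation p = 0.00233, adjusted over 3 ratios 0.00699). In each of the 16 sets that left out 1 animal, both ratios stayed past the threshold. The adjusted exact permutation p lay between 0.00420 and 0.0245 for Slc8a1 to Atp2a2, and between 0.00280 and 0.0145 for Ryr2 to Casq2. Ryr2 is the gene that passed alone, so its ratio to Casq2 is not independent of that call. Likewise, the Slc8a1 to Atp2a2 ratio combines the fold changes of these genes (−0.19 and 0.27), which did not pass, and is no separate finding. The members were chosen with earlier results of these data known, and the adjustment over 3 ratios does not cover that choice. Load markers and fibroblast markers differed between the same groups, and their part in the ratios was not tested.

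**Figure D3:**
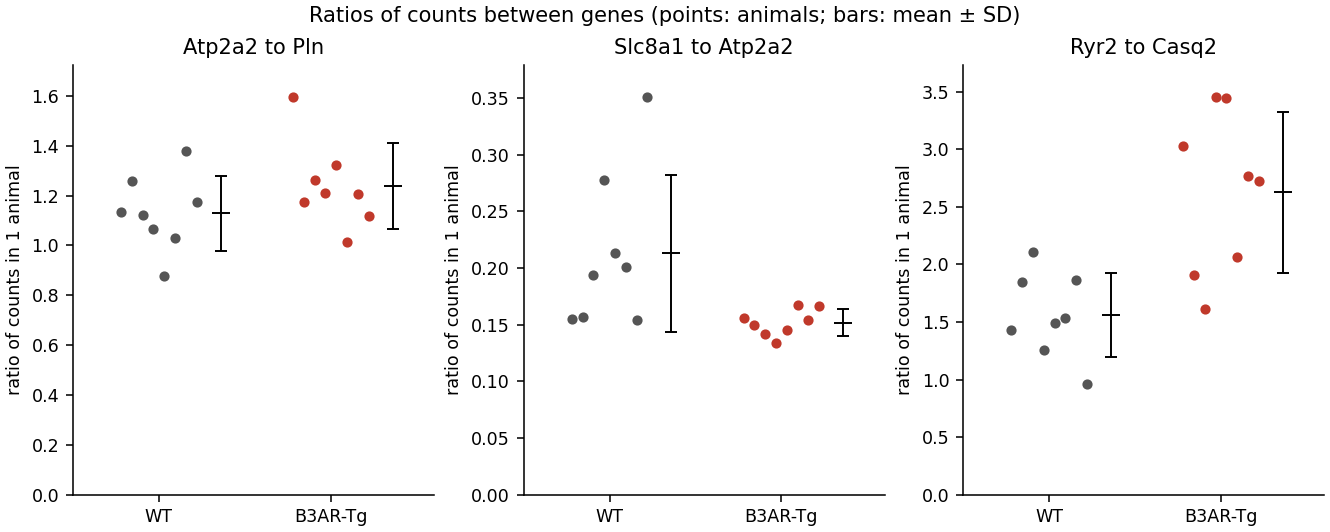
Ratio of counts of the named genes within each animal (vertical axis, from 0), with 1 point per animal in order of replicate number and the mean ± SD beside them. The Atp2a2 to Pln ratios overlap between WT and B3AR-Tg, the Slc8a1 to Atp2a2 ratios of B3AR-Tg stay at or below 0.167, and 5 of the Ryr2 to Casq2 ratios of B3AR-Tg lie above every WT animal.

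Levels were compared between genes only after division by length (CPM per kilobase of the longest coding transcript in GENCODE M21). In WT the order was Pln (2550), Atp2a2 (1484), Casq2 (559), Hrc (135), Ryr2 (128), Trdn (79.5), Slc8a1 (75.1), Asph (45.7), Jph2 (35.9) and Sln (2.66). The WT ranges of Hrc and Ryr2, of Trdn and Slc8a1, and of Asph and Jph2 overlapped. That of Slc8a1 also overlapped those of Hrc and Ryr2. The order among genes with overlapping ranges is not set beyond the spread between animals. Dividing by the union of all exons instead exchanged Trdn with Slc8a1 and Asph with Jph2. In B3AR-Tg the order was the same except that Ryr2 (177) stood before Hrc (151) and Jph2 (40.4) before Asph (39.4). By this measure the pump inhibitor phospholamban had the most transcript per kilobase in both groups.

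Across the animals of a genotype, some of these genes varied together. Of 45 pairs of members, 6 passed in both Pearson's r and the within-genotype rank correlation over 16 animals after removal of the genotype means (100000 permutations within genotype, adjusted over 45). Casq2 went with Slc8a1 (r = 0.85, adjusted permutation p = 0.00236, rank correlation 0.79, adjusted p = 0.0126, and r = 0.80 without the 2 animals farthest from the median). WT replicates 4 and 8 were the highest WT animals in both. Pln went with Trdn (r = 0.82, adjusted permutation p = 0.00236, rank correlation 0.75, adjusted p = 0.0199, r = 0.80 without 2 animals) and Atp2a2 with Hrc (r = 0.79, adjusted permutation p = 0.00236, rank correlation 0.92, adjusted p = 0.000900, r = 0.74 without 2 animals). Casq2 also went with Asph (r = 0.71, adjusted permutation p = 0.00639, rank correlation 0.69, adjusted p = 0.0400, r = 0.76 without 2 animals).

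Jph2 ran against Trdn and Pln. Its r was −0.81 with Trdn (adjusted permutation p = 0.00236, rank correlation −0.77, adjusted p = 0.0135, r = −0.73 without 2 animals) and −0.74 with Pln (adjusted permutation p = 0.00892, rank correlation −0.80, adjusted p = 0.0126, r = −0.71 without 2 animals). Each of the 6 relations had the same sign in WT and in B3AR-Tg. The pump and its inhibitor were not among them, since Atp2a2 and Pln had r = 0.31 (adjusted permutation p = 0.535, rank correlation 0.36, adjusted p = 0.444, r = 0.62 without 2 animals), and neither were Ryr2 and Casq2 (r = −0.21, adjusted permutation p = 0.672, rank correlation −0.26, adjusted p = 0.651, r = 0.00 without 2 animals). These pairs were examined after the data had been seen. All of these values share a library and its scaling.

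**Figure D4:**
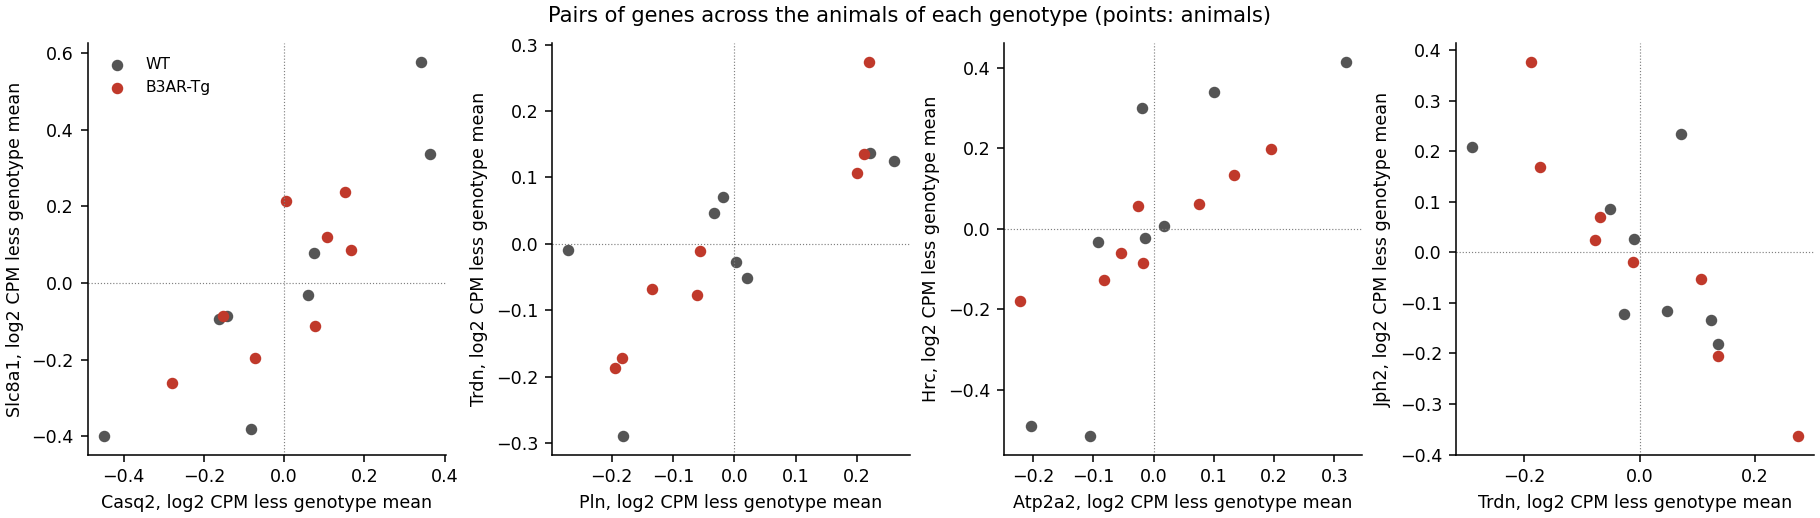
Deviation of log2 CPM from the genotype mean for 4 pairs of genes, with 1 point per animal (WT grey, B3AR-Tg red). Casq2 with Slc8a1, Pln with Trdn, and Atp2a2 with Hrc lie along a rising line (r = 0.85, 0.82 and 0.79), and Trdn with Jph2 along a falling one (r = −0.81).

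The genes most like single members within the genotypes, among those with a mean of at least 10 CPM, are given as a description over the 16 animals. For Ryr2 they were Zbtb20, Msl2 and Peak1 (r = 0.92, 0.91 and 0.91). For Atp2a2 they were Gpt, Alad and Abcd3 (0.89, 0.84 and 0.82), and Gpt, which encodes alanine aminotransferase, itself rose in B3AR-Tg, by 0.79 on the log2 scale (edgeR adjusted p = 0.00507). For Pln they were Lrrc39, Tcaim and Mmut (0.86, 0.86 and 0.84). For Sln they were Myl4, Taf1a and Surf2 (0.87, 0.74 and 0.72). Apart from Gpt, the genes listed as most like a member did not pass between genotypes (edgeR adjusted p from 0.0601 for Abcd3 to 0.997 for Peak1).

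Load markers vary between animals, and each member was therefore set against a load score (mean centred log2 CPM of the 5 load markers) within WT and within B3AR-Tg. Of the 20 relations 0 passed after adjustment (lowest adjusted exact permutation p = 0.329 for Pearson's r and 0.436 for Spearman's rho), while 2 by r and 1 by rho had an unadjusted p under 0.05. In WT, Pln had r = −0.76 (exact permutation p = 0.0326, n = 8) and rho = −0.67 (exact permutation p = 0.0831, n = 8), and r = −0.80 without the 2 animals farthest from the median score. Hrc in WT had r = −0.76 (exact permutation p = 0.0329, n = 8) and rho = −0.60 (exact permutation p = 0.132, n = 8), and r = −0.81 without those 2 animals. The B3AR-Tg animals gave r = −0.46 for Pln and −0.47 for Hrc, with rho of −0.40 and −0.24. Without the 2 farthest B3AR-Tg animals r was 0.16 for Pln and 0.01 for Hrc. Asph in B3AR-Tg had rho = 0.81 (exact permutation p = 0.0218, n = 8) but r = 0.47 (exact permutation p = 0.235, n = 8), and r = 0.71 without the 2 farthest animals. For Ryr2 the values were r = −0.64 in WT and −0.34 in B3AR-Tg, with rho of −0.52 and −0.50 (exact permutation p = 0.0915 and 0.411 for r, 0.197 and 0.216 for rho), and r = −0.87 and −0.75 without the 2 farthest animals of each genotype.

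The wider set of calcium handling genes was a list of 61, of which 60 had a row and 45 were tested. In it 7 genes, or 15.6%, passed, beside 4.91% of all tested genes, with 4 higher and 3 lower in B3AR-Tg. The list was chosen with earlier results of these data known, so this share is no test of the list. The median log2 fold change was −0.02. Among proteins of the tubules and the junction with the SR, 3 of 9 tested genes passed (33.3%, with Bin1, described below, among them). They included 2 of the 3 L-type calcium channel genes of the list. The third, Cacna2d1, had a log2 fold change of −0.09 (adjusted p = 0.563). Cacna1c, the pore subunit that passes the trigger current, went from a range of 251 to 341 CPM in WT to 275 to 427 CPM in B3AR-Tg (log2 fold change 0.33, standard error 0.09, adjusted p = 0.0394). Cacnb2, its beta subunit, went from 57.6 to 78.2 CPM in WT to 70.2 to 124 CPM in B3AR-Tg (0.45, standard error 0.11, adjusted p = 0.0191). In both, 7 of 8 B3AR-Tg animals were above the WT median.

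Bin1, which encodes the membrane-bending protein amphiphysin-2 of the tubules and is also expressed outside muscle, fell with the largest fold change of the list. It lay between 0.830 and 5.80 CPM in WT and between 0 and 1.01 CPM in B3AR-Tg, with 7 of 8 B3AR-Tg animals below every WT animal (log2 fold change −2.50, standard error 0.46, adjusted p = 0.00507). Its counts were low, at 7 to 65 per library in WT and 0 to 13 in B3AR-Tg. Bin1 reached the level of the low-count filter in 7 WT libraries and 1 B3AR-Tg library, so it was tested because of its level in WT, and its place among the 7 genes that passed is no support for a change in the list. Fibroblast markers were lower in the same animals, with the sums given above, and their part in the Bin1 values was not tested.

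Of the release unit and the SR lumen, 2 of 17 tested genes passed (11.8%, beside 4.91% of all tested genes), in opposite directions. Sri, which encodes sorcin, a calcium-binding regulator of the ryanodine receptor, fell from 13.9 to 27.5 CPM in WT to 8.39 to 17.1 CPM in B3AR-Tg (log2 fold change −0.66, standard error 0.16, adjusted p = 0.0219), with all 8 B3AR-Tg animals below the WT median. Selenon, a selenoprotein of the SR membrane, rose from 1.95 to 3.24 CPM to 3.03 to 5.52 CPM (0.60, standard error 0.17, adjusted p = 0.0421).

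Of the kinases and phosphatases that act on these proteins, 1 of 11 passed (9.09%, beside 4.91% of all tested genes). Camk2a, a calcium-dependent kinase gene, rose from 8.68 to 17.6 CPM in WT to 11.5 to 23.5 CPM in B3AR-Tg (0.63, standard error 0.16, adjusted p = 0.0241). Camk2d, the main cardiac isoform, had a log2 fold change of −0.02 (adjusted p = 0.959). Of the surface calcium pumps, Atp2b4 fell (−1.004, standard error 0.28, adjusted p = 0.0389) at a low level of 1.28 to 3.60 CPM in WT animals, against 0.626 to 2.60 CPM in B3AR-Tg, and Atp2b1 had a log2 fold change of 0.09. Atp2b4 reached the level of the low-count filter in 8 WT libraries and in 5 B3AR-Tg libraries. Like Bin1, it was thus tested because of its level in WT. Its place among the genes that passed is no support for a change in the list. Of the other SR pumps and pump micropeptides 1 of 6 was tested, Strit1, which encodes DWORF, a small protein that activates the pump. It lay between 5.10 and 21.2 CPM in WT and between 10.7 and 28.6 CPM in B3AR-Tg, and its log2 fold change of 0.62 (standard error 0.25) did not pass (adjusted p = 0.160). With the load markers or with the non-myocyte markers as a covariate, 0 of the 45 genes passed, while 0.064% and 0.164% of all tested genes did. Over the 26 alternative settings, Bin1 and Cacnb2 passed in 24 each, Sri in 22 and Camk2a in 21, but Cacna1c in 12, Selenon in 11 and Atp2b4 in 9.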

How the data were processed

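The authors deposited 1 table of whole-number counts per gene, not normalized, with 1 column per animal. Per the labels' protocols, ribosomal RNA was depleted and stranded libraries were sequenced from both ends. Salmon and the build GRCm39 are named in the submitters' processing notes, without a version, and the annotation and the handling of reads that match several genes are not given in the sources used here. Columns were mapped to animals by the name in each title, and groups and replicate numbers come from the titles.

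Genes were tested on the deposited counts in edgeR 4.0.16 (R 4.3.3, glmQLFit and glmQLFTest, a quasi-likelihood test), after filterByExpr (minimum count 10, minimum total 15) and TMM scaling, with genotype alone in the model. P-values were adjusted by Benjamini-Hochberg over 10945 genes (threshold 0.05, two-sided). The test was tested on simulated data first. Standard errors were derived from the F statistic. Log2 CPM used a prior count of 2. Ratios and correlations were tested by permutation of the animals (numpy 2.4.6, scipy 1.17.1).

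The members and lists were chosen with earlier results of these data known. Correlations between members were added after seeing the data. The text names all members, up to 6 genes per direction of the wider list past the threshold, and the 3 genes most like Ryr2, Atp2a2, Pln and Sln. Other genes of the wider list (Cacna2d1, Camk2d, Atp2b1, Strit1) were named after their values were seen. Alternatives covered RLE, upper quartile and total scaling, no filter, DESeq2 1.42.0, limma 3.58.1 (voom), covariates, a replicate block, removal of mitochondrial genes, and each animal left out. Arln, of the wider list, had no row under that symbol. Proteins were not analysed here.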

Additional observations from a re-analysis of the deposited data

Results flagged for a closer look

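In 26 groups of 8 values (10 genes and 3 ratios in each genotype), the gap of the highest or lowest animal to its neighbour was set against the group's range, and 1 group exceeded Dixon's critical value for 8 values. Chance alone exceeds it in about 1 in 20 groups. Trdn was lowest in WT replicate 2, where the gap took 0.559 of the range on the log2 CPM scale. This animal had 292 CPM, and the other WT replicates had 345 to 393 CPM. Its load score (2.03) and its non-myocyte marker score (0.98) were the highest of the 16 animals, and their part in the value was not tested. Without it the log2 fold change of Trdn was −0.24 (edgeR adjusted p = 0.0901).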

How the results depend on the processing

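Ryr2 kept its sign in all 26 alternatives and passed the threshold in 15, with adjusted p between 0.00803 and 0.849. Atp2a2, Casq2, Trdn, Jph2 and Slc8a1 also kept their signs in all 26. The number of the 10 genes called was 1, and it became 2 (Ryr2 and Atp2a2) with DESeq2 and with total scaling, and 0 with the load score covariate, the non-myocyte marker covariate and the replicate block. It ranged from 0 to 2 when 1 animal was left out. Over all genes, 537 calls became 7 with the load score covariate, 18 with the non-myocyte marker covariate and 230 with the replicate block, and ranged from 272 (without WT replicate 4) to 675 (without WT replicate 3) with 1 animal left out. B3AR-Tg replicate 5 (277 without it) and replicate 8 (345) also moved this count by over 1.5 times. The 7 calls of the wider list became 0 with either covariate and 3 with the replicate block, and ranged from 2 (without WT replicate 4 or B3AR-Tg replicate 5) to 8, with 4 without B3AR-Tg replicate 2. Both covariate scores differ with genotype themselves, so calls lost with them cannot be told apart from that overlap. The cause was not tested. DESeq2 called 804 genes. With total scaling, 346 of 511 calls were higher in B3AR-Tg, against 222 of 537.

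Signs turned for Pln (−0.16 with the load score, −0.0237 with the non-myocyte score), Sln (0.14 with the non-myocyte score), and Asph and Hrc (0.00904 and −0.29 with the load score), none of which had passed. With Myh7 alone in place of the load score, r in B3AR-Tg turned to 0.285 for Ryr2, −0.391 for Casq2 and −0.0787 for Asph.

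The 3 ratios kept their side of the threshold in all 18 alternatives. The replicate block (a sign-flip permutation over 8 pairs) left their log2 differences at 0.13, −0.43 and 0.74, with adjusted exact p of 0.281, 0.0352 and 0.0352. Replicate numbers belong to different animals and did not pair them. Same-numbered animals had correlations of deviations between −0.219 and 0.0935, and 0 of 8 WT animals were most like their own number. Among the members and the genes of the wider list that passed, counts were low for Sln (1 to 79), Bin1 (0 to 65), Atp2b4 (6 to 40) and Selenon (18 to 58). Whether depth limits them was not tested. Atp2b4 and Selenon did not pass without the low-count filter.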
